A study of Mus musculus with 24 samples.

Results

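Promoters of long intergenic non-coding RNAs (lincRNAs) were examined for peaks of 3 transcription regulators (TRs) in mouse cortex. Each promoter was the 2000 bp upstream of a transcription start site (TSS) of a gene that GENCODE vM21 types as lincRNA on chromosomes 1 to 19, and it was kept where it lay at least 5000 bp from every TSS of a protein-coding gene. This rule kept 6147 promoters, which is 85.7% of the 7173 lincRNA promoters and 4.88% of the 125977 promoters of all genes, where a promoter was counted once per gene and TSS. They belonged to 4467 of 5209 lincRNA genes. Overlapping promoters of neighboring TSSs merged to 4836 separate regions covering 10.1 Mb, so the promoters were not independent of each other. A single promoter was kept for 3537 genes, and 930 genes had at least 2. For 41 of the genes the limit left out 76 further promoters, so values by gene rest on the promoters that were kept. The median distance to the nearest coding TSS was 70.4 kb, with quartiles of 28.5 and 181 kb. Most of the genes carry catalog names, 3100 with a Gm number and 891 with the name of a Rik cDNA clone.

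ChIP-seq sequences the DNA that an antibody pulls down with its target protein, and stretches of the genome with more such reads than a background are called as peaks. Here the authors' peak caller ran without a local background. The background was thus constant along the genome within a list, and input reads at the same place did not change it. The chromatin came from fixed whole cortex of wild-type mouse embryos, on a CD1 background, at stages E15.5 and E18.5 (days of gestation). For ARID1B, FOXP1, and TCF7L2 there were 2 ChIP and 2 input libraries at each stage, 24 libraries in all. The labels write TCF4 for the third target, whereas the antibody list of the methods names TCF7L2, and that name is used here. The authors deposited 6 peak lists, 1 for each TR and stage, called on merged replicates. Differences between lists therefore could not be set against the spread between replicates, and no test was made. Shares are given with a 95% Wilson interval, which holds the counting error and nothing else. Whole cortex holds many cell types, and fewer cells with a bound promoter cannot be told apart from weaker binding in each cell.

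The lists differed in depth and length. They held 24526 (FOXP1, E18.5) to 70709 peaks (ARID1B, E15.5) on chromosomes 1 to 19. Behind each list stand the merged ChIP reads and the merged input reads. The size of the smaller of these read sets was recovered from the tie between fold enrichment and p-value. It was 26.3 M reads for the FOXP1 E18.5 list, against 57.3 to 80.7 M reads elsewhere. Whether ChIP or input was the smaller is not known. The lowest fold enrichment that was called was 3.21 in the FOXP1 E18.5 list and 2.33 to 2.66 in the others. Fold enrichment is the ratio of ChIP reads at a peak's summit to the background, as the authors' peak caller gave it.

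LincRNAs are transcribed by RNA polymerase II from promoters of their own, and many are spliced and polyadenylated like mRNAs without encoding a protein. In the cortex some of them host microRNAs of neurons, others stay in the nucleus and build nuclear bodies, and many have no known role. ARID1B is a subunit of the BAF complex, which moves and evicts nucleosomes. FOXP1 is a forkhead transcription factor of cortical neurons, and TCF7L2 is an HMG-box transcription factor that acts with beta-catenin downstream of Wnt signals. Promoters of vertebrates fall broadly into those rich in CpG, the dinucleotide that is methylated in most of the genome, and those poor in it.

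The sequences that follow are windows from genes with peaks and from promoters without. CGs are marked because the share of lincRNA promoters with a peak rose with CpG content in each of the 6 lists. The sequence and annotation features examined were not compared on a common scale. Each is 200 bases of the GRCm38 reference, written 5' to 3' on the strand of the gene, with every CG in capitals. The reference is of another strain than the mice used, and strain differences were not analysed here. The first 6 windows are centered on the highest FOXP1 summit at E15.5 of genes with promoter peaks in all 6 lists, and they held 6 to 24 CGs.
Malat1, chr19:5803586-5803785, minus strand: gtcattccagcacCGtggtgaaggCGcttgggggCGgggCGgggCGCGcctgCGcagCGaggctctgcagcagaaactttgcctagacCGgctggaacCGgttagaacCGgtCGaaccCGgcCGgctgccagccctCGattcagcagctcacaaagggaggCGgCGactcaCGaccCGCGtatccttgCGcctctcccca
D730045B01Rik, chr5:151368738-151368937, minus strand: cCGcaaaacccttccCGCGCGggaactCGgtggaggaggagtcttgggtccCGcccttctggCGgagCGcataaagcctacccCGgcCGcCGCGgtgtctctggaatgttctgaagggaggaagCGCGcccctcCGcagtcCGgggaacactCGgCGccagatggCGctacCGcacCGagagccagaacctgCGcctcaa
Neat1, chr19:5845918-5846117, minus strand: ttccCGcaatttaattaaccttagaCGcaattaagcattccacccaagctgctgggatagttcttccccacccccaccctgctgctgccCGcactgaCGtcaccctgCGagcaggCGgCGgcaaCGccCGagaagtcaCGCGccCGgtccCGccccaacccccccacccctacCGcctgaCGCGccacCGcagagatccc
Mir9-3hg, chr7:79499841-79500040, plus strand: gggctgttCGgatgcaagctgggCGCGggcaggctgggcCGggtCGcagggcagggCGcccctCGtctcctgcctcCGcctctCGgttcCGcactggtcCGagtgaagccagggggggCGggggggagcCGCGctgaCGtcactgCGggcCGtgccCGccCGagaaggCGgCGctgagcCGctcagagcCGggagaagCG
1700020I14Rik, chr2:119594195-119594394, plus strand: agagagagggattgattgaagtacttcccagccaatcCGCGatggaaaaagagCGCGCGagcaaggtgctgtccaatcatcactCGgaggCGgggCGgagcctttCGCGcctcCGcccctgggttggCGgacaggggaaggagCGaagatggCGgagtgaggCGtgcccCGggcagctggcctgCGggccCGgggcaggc
2900097C17Rik, chr2:156393019-156393218, minus strand: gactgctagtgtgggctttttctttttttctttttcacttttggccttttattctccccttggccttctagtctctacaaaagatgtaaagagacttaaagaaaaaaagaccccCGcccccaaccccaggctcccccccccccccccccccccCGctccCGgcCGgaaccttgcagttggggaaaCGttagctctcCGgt

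The window of Mir9-3hg held 24 CGs and that of D730045B01Rik 22, while the window of 2900097C17Rik, which contains a long run of C, held 6. The summits lay upstream of the TSS in each of these genes except D730045B01Rik, where it lay 334 bp downstream. For contrast, the 200 bases directly upstream of a TSS inside Pantr1 and of the TSS of Platr11, whose promoters had no peak in any list, held 8 and 4 CGs. Single windows overlapped between promoters with and without peaks, as that of Pantr1 held more CGs than that of 2900097C17Rik, and the difference in CpG content is one between medians.
Pantr1, chr1:42651680-42651879, minus strand: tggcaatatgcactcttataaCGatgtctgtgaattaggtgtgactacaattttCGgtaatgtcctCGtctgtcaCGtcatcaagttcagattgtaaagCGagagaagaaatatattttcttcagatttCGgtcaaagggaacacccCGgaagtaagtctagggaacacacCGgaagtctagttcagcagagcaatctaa
Platr11, chr9:118406100-118406299, minus strand: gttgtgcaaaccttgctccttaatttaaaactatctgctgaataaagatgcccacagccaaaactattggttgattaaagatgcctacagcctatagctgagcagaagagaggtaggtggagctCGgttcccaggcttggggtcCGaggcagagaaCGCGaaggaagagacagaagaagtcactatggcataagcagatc

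The last 3 windows are centered on E15.5 summits of genes at which a single TR had peaks, ARID1B at Gm49046, FOXP1 at 4930573C15Rik, and TCF7L2 at Gm13067. They held 3, 5, and 17 CGs.
Gm49046, chr14:81098711-81098910, plus strand: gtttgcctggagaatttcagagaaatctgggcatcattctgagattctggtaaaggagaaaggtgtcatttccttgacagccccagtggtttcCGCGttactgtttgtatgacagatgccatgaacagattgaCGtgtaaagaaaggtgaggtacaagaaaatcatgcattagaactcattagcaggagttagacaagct
4930573C15Rik, chr5:146706173-146706372, plus strand: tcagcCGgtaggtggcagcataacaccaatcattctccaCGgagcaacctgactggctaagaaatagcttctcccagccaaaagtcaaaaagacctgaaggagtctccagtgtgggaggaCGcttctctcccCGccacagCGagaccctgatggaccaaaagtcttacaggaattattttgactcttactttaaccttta
Gm13067, chr4:150048822-150049021, plus strand: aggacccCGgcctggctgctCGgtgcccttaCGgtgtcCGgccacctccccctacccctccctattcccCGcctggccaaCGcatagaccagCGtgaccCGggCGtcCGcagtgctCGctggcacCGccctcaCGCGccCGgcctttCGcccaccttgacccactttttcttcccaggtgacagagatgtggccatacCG

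Between 7.84% and 16.7% of lincRNA promoters overlapped a peak, depending on the list and its length, below the share of all promoters in each list. At E15.5, ARID1B peaks overlapped 1029 lincRNA promoters (16.7%, interval 15.8 to 17.7), against 41.7% of all promoters. FOXP1 peaks at E15.5 overlapped 1014 (16.5%, 15.6 to 17.4), against 43.5%. TCF7L2 peaks at E15.5 overlapped 619 (10.1%, 9.34 to 10.8), against 39.3%. At E18.5, ARID1B peaks overlapped 953 (interval 14.6 to 16.4%), against 40.5%, and FOXP1 peaks 482 (7.84%, 7.20 to 8.54), against 36.8%. TCF7L2 peaks at E18.5 overlapped 855 (13.9%, 13.1 to 14.8), against 42.8%. The FOXP1 E18.5 list, which had the fewest peaks and the smallest recovered read set, also had the lowest share. This order rests on list length. With every list cut to its 24526 strongest peaks, ARID1B had 7.40% at the earlier stage and 6.83% at the later one, FOXP1 had 9.34% and 7.84%, and TCF7L2 had 7.84% and 8.75%, so that both ARID1B lists were lower than FOXP1 at E18.5. The shares of all promoters were then 28.0% to 38.5%.

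LincRNA promoters stood between intergenic sequence and coding promoters. Among 951033 intergenic windows of 2000 bp, chosen to overlap no promoter and to lie at least 5000 bp from coding TSSs, 5.07% overlapped an ARID1B peak at E15.5 and 0.956% a FOXP1 peak at E18.5, the ends of the range. The lincRNA share was 3.30 times (ARID1B, E15.5) to 8.20 times (FOXP1, E18.5) that of the windows. The share of 90310 protein-coding promoters was in turn 3.09 times (ARID1B, E15.5) to 6.0 times (FOXP1, E18.5) that of lincRNA promoters. Promoters of other non-coding genes at the same distance from coding TSSs (5070 of antisense, processed transcript, and TEC genes) came close, with 15% for ARID1B and 14.9% for FOXP1 at E15.5, each interval overlapping that of the lincRNA promoters.

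**Figure D1:**
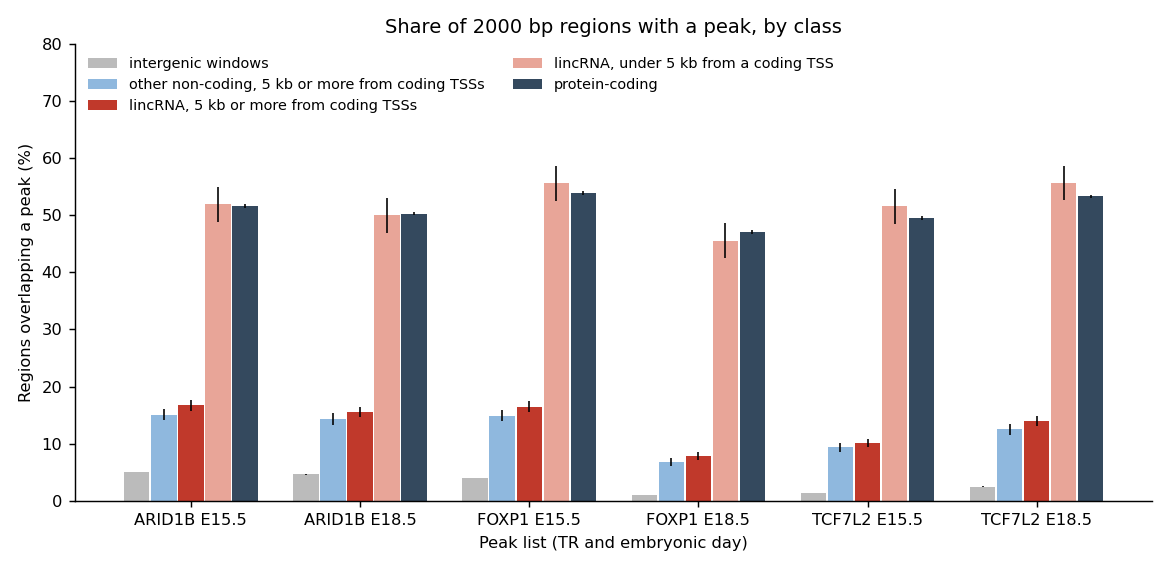
Bars give the percent of 2000 bp regions that overlap a peak of each list, for 5 classes of region, with 95% Wilson intervals. The lincRNA promoters at least 5 kb from coding TSSs (7.84% to 16.7%) lie above intergenic windows (0.956% to 5.07%) and far below protein-coding promoters (47.0% to 53.9%).

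The lincRNA promoters left out by the distance limit differed from the members mainly in the first kb. Of 676 lincRNA promoters under 1 kb from a coding TSS, 71.4% overlapped a FOXP1 peak at E15.5, whereas of 95 promoters 2 to 3 kb away 12.6% did. The 79 promoters just outside the limit, 4 to 5 kb away, had 38.0%, and the 66 just inside it, 5 to 6 kb away, had 19.7%, with 28.0% of 82 promoters at 6 to 7 kb. FOXP1 peaks at E15.5 overlapped 18.2% of promoters 5 to 20 kb from a coding TSS, 19.4% at 20 to 50 kb, 17.5% at 50 to 100 kb, 16.3% at 100 to 200 kb, and 11.5% of those farther away. For FOXP1 at E18.5 the same classes had 9.83%, 11.0%, 7.72%, 7.04%, and 3.84%. In every list the class beyond 200 kb had the lowest share. The nearest coding gene itself had a promoter peak of the same list for 78.5% of lincRNA promoters with a FOXP1 peak at E15.5 and for 75.4% of those without one.

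Peaks at lincRNA promoters were centered on the TSS, as the plot of summits by distance shows. In bins of 1 kb, 9.45% of lincRNA TSSs had a FOXP1 E15.5 summit in the kb upstream and 8.25% in the kb downstream, against 2.96% to 4.47% in each other bin out to 10 kb. For FOXP1 at E18.5 the upstream bin held 4.91%, the downstream bin 3.43%, and the other bins 0.830% to 1.64%. The same bins at coding TSSs held 31.9% and 23.2% for FOXP1 at E15.5. Of the lincRNA promoters with a peak, 38.2% (TCF7L2, E18.5) to 45.9% (FOXP1, E18.5) had the summit of the highest peak within 500 bp upstream of the TSS. A further 28.9% to 32.4% had it 500 to 2000 bp upstream, and 19.5% to 26.3% had it at or beyond the TSS, with the peak reaching back into the promoter.

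**Figure D2:**
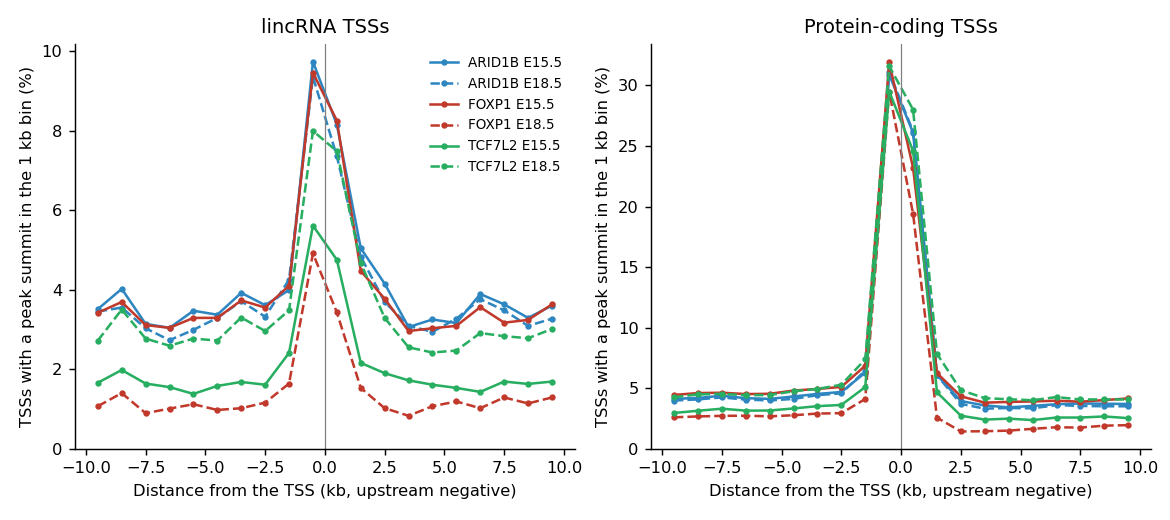
Lines give the percent of TSSs with at least 1 peak summit in each 1 kb bin (y axis) by distance from the TSS in kb (x axis), for lincRNA TSSs (left) and protein-coding TSSs (right, on its own scale), solid at E15.5 and dashed at E18.5. All 6 lists peak in the kb upstream of lincRNA TSSs, at 4.91% to 9.73%.

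Peaks at lincRNA promoters were lower and narrower than peaks at coding promoters in each of the 6 lists. In the FOXP1 E15.5 list, the 847 peaks at lincRNA promoters had a median fold enrichment of 4.43 (quartiles 3.42 and 6.20) and a median width of 544 bp. The 16462 peaks at coding promoters had 7.97 and 1037 bp, and the 44145 peaks at no promoter 3.80 and 374 bp. In the ARID1B lists the gap was smaller, with medians of 3.84 against 4.64 at E15.5 and 4.21 against 5.05 at E18.5. For TCF7L2 they were 4.21 against 5.67 at E15.5 and 3.72 against 5.36 at E18.5. For FOXP1 at E18.5 they were 5.27 against 7.91. Peaks at lincRNA promoters made up 1.19% to 1.41% of each list.

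About 1 lincRNA promoter in 5 had a peak in some list, and few had all of them. No list had a peak at 4858 promoters (79.0%), and 1289 (21.0%) had a peak in at least 1 list. All 6 lists had a peak at 376 promoters (6.12%). Counted by gene, with a peak at any of its promoters, 235 genes had all 6 lists. Among coding promoters 43.5% had none and 44.8% had all 6. At E15.5, all 3 TRs had a peak at 568 lincRNA promoters, 9.24% of them, against 37.9% of all promoters, and at E18.5 at 422, 6.87%, against 35.5%.

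Among promoters with any peak, the share with all 3 TRs was far smaller for lincRNA than for coding promoters. At E15.5, 568 of the 1201 lincRNA promoters with any peak (47.3%) had all 3 TRs, against 87.1% of 49881 coding promoters. At E18.5 it was 37.4% of 1127, against 83.1% of 49527. The most frequent pair at E15.5 was ARID1B with FOXP1 and no TCF7L2, at 289 promoters (24.1%, against 4.50% of coding promoters with any peak). At E18.5 it was ARID1B with TCF7L2 and no FOXP1, at 278 promoters (24.7%, against 6.26%). The same pairs were the most frequent at coding promoters. ARID1B stood alone at 160 promoters at E15.5 (13.3%, against 1.72% of coding promoters with any peak), then 230 at E18.5 (20.4%, against 2.13%). FOXP1 stood alone at 133 (11.1%, against 4.15%), then 19 (1.69%, against 0.446%). TCF7L2 stood alone at 15 (1.25%, against 0.513%), then 137 (12.2%, against 5.83%). FOXP1 alone was thus less frequent at the later stage, and TCF7L2 alone more frequent, at lincRNA and coding promoters both. The TR missing from the most frequent pair was the one with the shortest list of that stage, so list length and TR cannot be told apart in these counts.

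**Figure D3:**
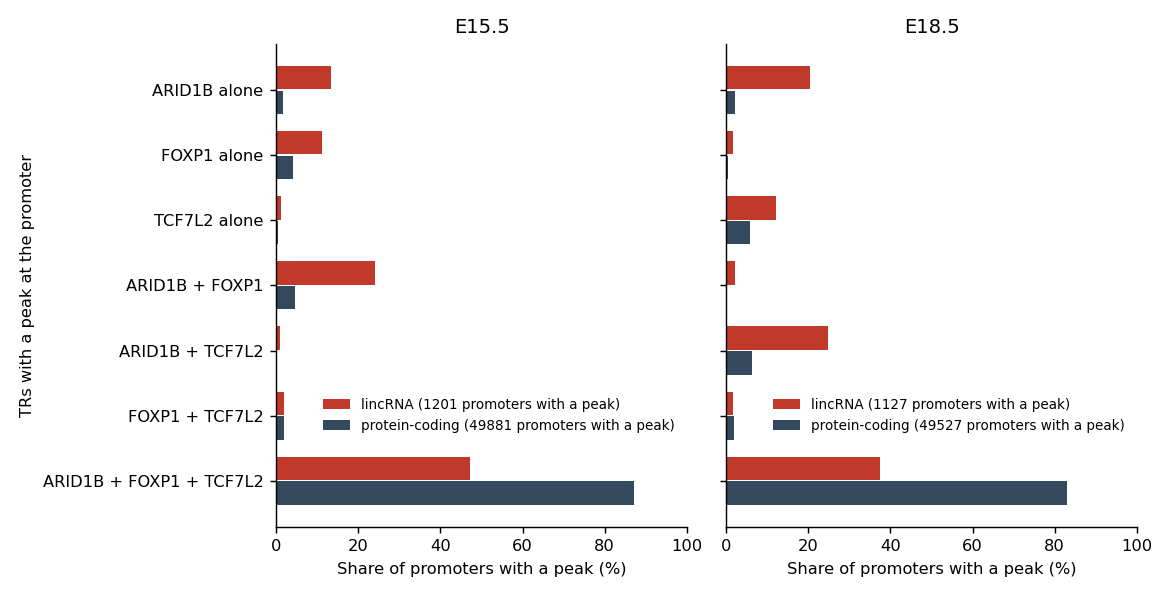
Bars give, for E15.5 (left) and E18.5 (right), the percent of promoters with any peak that had each set of TRs, for lincRNA and protein-coding promoters. All 3 TRs together make up 47.3% and 37.4% of lincRNA promoters with a peak, against 87.1% and 83.1% of coding ones.

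Where several TRs had peaks at the same lincRNA promoter, their summits lay close together. The median distance between ARID1B and FOXP1 summits at E15.5 was 99 bp over 603 pairs of peaks, and 71.6% of pairs lay within 200 bp. The corresponding median at coding promoters was 96 bp, with 73.2% within 200 bp. FOXP1 and TCF7L2 summits at E15.5 lay a median of 93 bp apart at lincRNA promoters and 84 bp apart at coding promoters.

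ARID1B peaks were mostly shared between stages, whereas the FOXP1 and TCF7L2 lists differed in the direction of their length. ARID1B had peaks at 878 lincRNA promoters at both stages, which is 85.3% of those at E15.5 and 92.1% of those at E18.5. FOXP1 had 478 at both, 536 at E15.5 alone, and 4 at E18.5 alone. TCF7L2 had 591 at both, 28 at E15.5 alone, and 264 at E18.5 alone. Of the coding promoters with a peak, 95.2% of those at E15.5 and 97.7% of those at E18.5 were shared for ARID1B, 87.2% and 99.8% for FOXP1, and 99.4% and 92.4% for TCF7L2. The lincRNA shares were 47.1% and 99.2% for FOXP1 and 95.5% and 69.1% for TCF7L2. Peaks at a single stage had the lower median, except at the 4 promoters with a FOXP1 peak at E18.5 alone (5.85, against 5.71 at both stages). FOXP1 E15.5 peaks had a median fold enrichment of 6.96 at the promoters kept at E18.5 and 3.92 at the others, and TCF7L2 E18.5 peaks had 4.71 at the promoters also called at E15.5 and 3.17 at the others. When the lists were cut to equal length, keeping the 24526 peaks with the lowest p-values, FOXP1 had peaks at 574 lincRNA promoters at the earlier stage and 482 at the later one, of which 424 were shared. TCF7L2 then had 482 and 538, of which 437 were shared, and ARID1B 455 and 420, of which 362 were. The count at equal length was not made for coding promoters, so these values cannot be set beside theirs. With any of the 3 TRs counted, 1039 promoters had a peak at both stages, 86.5% of those at E15.5 and 92.2% of those at E18.5, against 97.0% and 97.6% at coding promoters. No lincRNA gene had all 3 TRs at E18.5 and none at E15.5, and 1, Gm17619, had the reverse, with E15.5 fold enrichments for ARID1B of 3.21, for FOXP1 of 4.81, and for TCF7L2 of 4.10.

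CpG content ordered lincRNA promoters by their share with a peak in each of the 6 lists. CpG content was taken as the observed number of CGs over the number that the C and G bases of the 2000 bp would give by random order. Of the lincRNA promoters, 3175 (51.7%) lay under 0.2, 2659 (43.3%) between 0.2 and 0.4, 267 (4.34%) between 0.4 and 0.6, and 46 (0.748%) at 0.6 and over. FOXP1 peaks at E15.5 overlapped 7.40%, 22.1%, 56.9%, and 87.0% of these classes. TCF7L2 peaks at E15.5 overlapped 3.21%, 13.2%, 47.2%, and 87.0%, and ARID1B peaks at E15.5 7.81%, 22.6%, 52.8%, and 84.8%. In the E18.5 lists, the first and last classes had 7.31% and 84.8% for ARID1B, 2.05% and 84.8% for FOXP1, and 5.26% and 91.3% for TCF7L2.

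Within each of the 4 CpG classes, coding promoters had the higher share, and intergenic windows the lower one. The classes are broad, and CpG content was not matched within them. Of coding promoters, 20.8% lay between 0.4 and 0.6, and 94.8% of these overlapped a FOXP1 peak at E15.5, against 56.9% of the lincRNA promoters of that class. At 0.6 and over it was 98.8% of 9861 coding promoters against 87.0% of 46 lincRNA promoters. Under 0.2 the classes differed by the fewest percentage points, with 10.8% of coding promoters, 7.40% of lincRNA promoters, and 2.49% of intergenic windows. Among 972 intergenic windows at 0.6 and over, 19.7% overlapped a FOXP1 peak at E15.5, with an interval of 17.3 to 22.3%, against 74.3 to 93.9% for the lincRNA promoters.

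**Figure D4:**
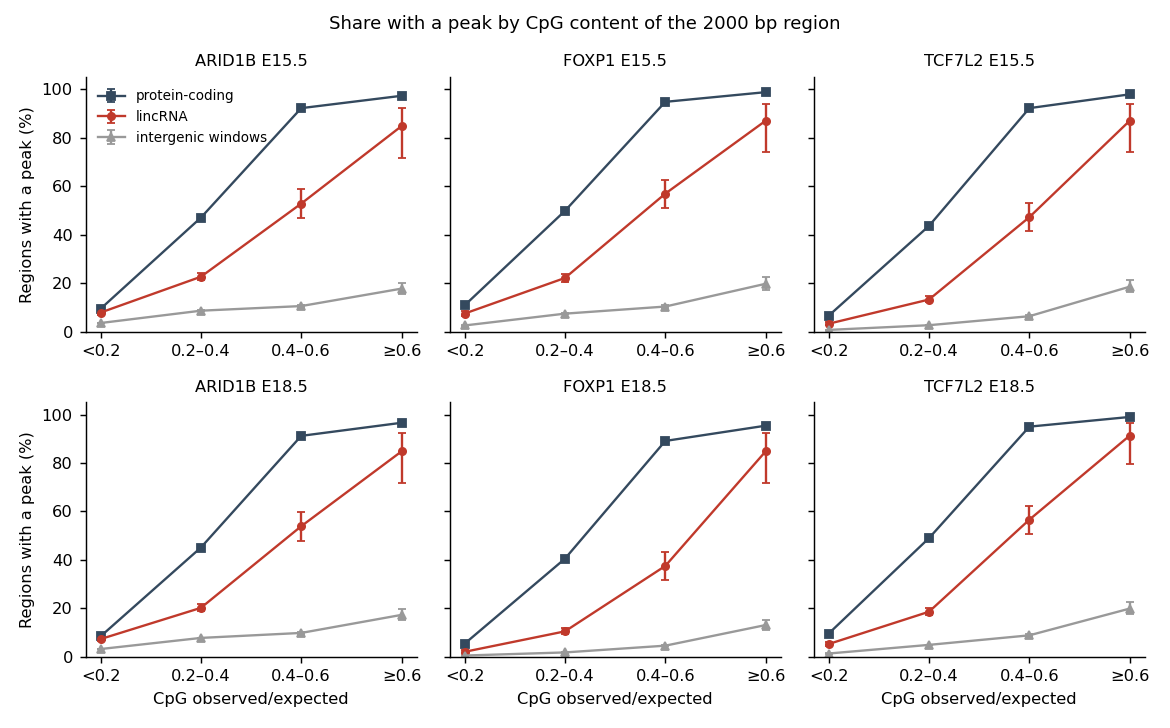
Points give the percent of regions with a peak (y axis) by class of CpG observed over expected (x axis), 1 panel per list, with 95% Wilson intervals, for protein-coding promoters, lincRNA promoters, and intergenic windows. The lincRNA share rises with CpG content in each panel, from 2.05% to 7.81% in the lowest class to 84.8% to 91.3% in the highest.

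The median CpG observed over expected was 0.344 for the 376 promoters with a peak in all 6 lists, 0.239 for the 913 with a peak in 1 to 5 lists, and 0.183 for the 4858 with none. GC content had medians of 49.1%, 46.1%, and 44.0%, and the soft-masked (repeat) share of the promoter had medians of 16.4%, 18.4%, and 23.8%. The lower quartile of the promoters with all 6 lists was 0.256. Coding promoters, with and without peaks, had a median of 0.291.

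Short motifs were searched as exact letters on both strands of the 2000 bp. GGGCGG, the core of sites of SP and KLF factors, which holds a CG itself, stood in 62.2% of the promoters with all 6 lists and in 21.0% of those with none, against 47.1% of all promoters. Within the class of CpG content from 0.2 to 0.4 these shares were 51.9% of 208 promoters and 30.4% of 1924. GCATGCGC, letters of NRF1 sites, stood in 7.98% and 2.53%, against 5.78% of all promoters. NRF1 is a factor of housekeeping promoters, and its letters also hold a CG.

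Over all CpG classes, the letters of the families of FOXP1 and TCF7L2 stood in similar shares of promoters with and without peaks. The forkhead letters TGTTTAC stood in 23.9% of promoters with all 6 lists and 25.4% of those with none, against 24.2% of all promoters. The TCF/LEF letters TCAAAGG stood in 32.2% and 34.1%, against 31.0%. Within the CpG class under 0.2, TCAAAGG stood in 22 of 37 promoters with all 6 lists (59.5%), in 37.3% of those with 1 to 5 lists, and in 34.0% of those with none. In the class from 0.2 to 0.4, which held most of the promoters with all 6 lists (208), the shares were 31.7%, 31.7%, and 34.6%, and in the class from 0.4 to 0.6 they were 26.1%, 37.5%, and 30.5%. The higher share under 0.2 thus rests on 37 promoters and was not seen in these other classes.

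The other letters searched were as frequent or rarer in promoters with peaks. AAGATGGCG (YY1), which holds a CG, stood in 0.532% of promoters with all 6 lists and 1.83% of those with none, against 2.26% of all promoters. CCAAT (NF-Y) stood in 90.2% and 95.7%, against 93.4%.

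CATCTG, letters of bHLH factors, stood in 82.4% and 83.2%, against 77.0%. For the letters TATAAA of the TATA promoter element the shares were 68.4% and 78.2%, against 70.8%.

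Near the summits, few windows held the letters of the FOXP1 and TCF7L2 families. In 200 bp around 715 FOXP1 E15.5 summits at lincRNA promoters, TGTTTAC stood in 4.20%, against 2.89% of all 63281 summits of that list. In the same list TCAAAGG stood in 3.50%, against 3.18%. Around 586 TCF7L2 E18.5 summits at lincRNA promoters, TCAAAGG stood in 5.12%, against 3.45% of all 52595, and TGTTTAC in 4.27%, against 2.16%. GGGCGG stood in 16.8% (ARID1B, E15.5) to 29.8% (FOXP1, E18.5) of summits at lincRNA promoters, against 15.2% and 36.1% of all summits of those lists. These are matches of letters and not measured binding sites.

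LincRNA genes with a proper symbol had the largest share with peaks among the classes of names. Of 243 promoters of 85 genes with other symbols than Gm numbers, Rik clones, or clone and sequence numbers, 51.4% had a peak in at least 1 list and 27.2% in all 6. For 3845 promoters of Gm-number genes these shares were 18.6% and 4.50%, and for 1516 promoters of Rik genes 21.9% and 7.85%. The share also rose with the number of promoters of a gene, from 17.8% of promoters of genes with 1 to 32.7% of promoters of genes with 4 or more. It differed less by transcript support level, from 23.5% at level 1, the best supported, to 17.3% at level 5. By number of exons, 22.8% of promoters of single-exon transcripts and 20.5% of those with 3 or more exons had a peak. Of 386 lincRNA promoters that also overlapped a promoter of a gene of another type, 35.0% had a peak, against 20% of the other 5761. Among chromosomes the share with a peak in any list ran from 12.6% (chromosome 10) to 30.3% (chromosome 2).

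Of 15 lincRNA genes of a list with neural roles or expression, 12 had promoter peaks in all 6 lists and 14 in at least 1. Over all 4467 genes, 235 (5.26%) had all 6 and 909 (20.3%) at least 1. The list held 29 names, of which 12 are of another gene type in vM21, and it was not chosen independently of these data. Its genes had 2 to 14 promoters each and so more places at which a peak could be counted than the 3537 genes with 1. Most of them also have a proper symbol. In that class of names, whatever the role of the gene, 51.4% of promoters had a peak in at least 1 list and 27.2% in all 6. Malat1, an abundant RNA of nuclear speckles, lies at chr19:5795690-5802672 on the minus strand. Its highest promoter peaks had fold enrichments for ARID1B of 8.37, for FOXP1 of 33.3, and for TCF7L2 of 10.5 at E15.5, then of 10.5, 11.7, and 13.0 at E18.5. The FOXP1 E15.5 peak was far above the other 5. Its summit lay at -1014 bp from the TSS at 5802672 and the peak was 2817 bp wide.

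Neat1, the RNA scaffold of paraspeckles, at chr19:5824708-5845478 on the minus strand, had high peaks in all 6 lists. With the TRs in the same order as for Malat1, here and for the genes that follow, its fold enrichments were 9.61, 14.7, and 9.01 at E15.5, then 9.82, 10.4, and 9.85 at E18.5. All 6 summits lay between -448 and -591 bp from the TSS at 5845478. Miat, a nuclear RNA of neurons, had 7.66, 12.3, and 6.82 at E15.5, then 5.61, 7.91, and 7.99 at E18.5. The summits of Miat lay between -110 and -199 bp from its TSS at 112228675 on chromosome 5, and downstream of its 3 outermost TSSs, by 55 to 610 bp. Of the neural genes named as Rik clones, 1700020I14Rik had 4.99, 12.2, and 8.07 at E15.5, then 5.33, 7.77, and 6.79 at E18.5. 2900097C17Rik stood out by its FOXP1 peak at E15.5, with 3.93, 20.5, and 4.52 at E15.5, then 4.21, 7.33, and 4.6 at E18.5. Pvt1, a neighbor of Myc, had 4.49 to 7.47 over the 6 lists, and Lncpint, a target of p53, 4.77 to 5.41.

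Within genes that had several promoters, the peaks were often at some of them. Pvt1 had peaks of each list at 6 of its 10 promoters. Rmst had ARID1B peaks at 4 of 13 promoters at E15.5, then 3 at E18.5, and its highest peaks lay near TSSs in the gene's 5' part with a CpG observed over expected of up to 0.591. At Lncpint, FOXP1 peaks overlapped 13 of 14 promoters at E15.5 and 1 at E18.5, while TCF7L2 peaks overlapped 12 at both stages. At Malat1, the promoters of both TSSs at the 5' end had peaks in all 6 lists. The other 2 promoters, which lie inside the gene, had lower FOXP1 peaks of 3.54 at E15.5 and TCF7L2 peaks of 3.06 and 3.28 at the earlier and later stage, and none of ARID1B. At H19, a single TCF7L2 peak at E18.5 overlapped all 7 promoters, so these do not count as 7 observations.

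Genes whose transcripts contain microRNAs of neurons were among those with peaks in all 6 lists. Mir9-3hg, the host of a miR-9 hairpin, had 6.50, 13.3, and 8.80 at E15.5, then 7.15, 7.03, and 8.65 at E18.5. Mir124a-1hg, a host of miR-124, had 7.30, 11.3, and 7.02 at E15.5, then 6.31, 7.47, and 7.12 at E18.5. Mir124-2hg, a second host of miR-124, was lower, with 3.94 to 5.44 over the 6 lists. C130071C03Rik, which lies 66.5 kb from a TSS of Mef2c, had 6.24, 13.0, and 8.38 at E15.5, then 6.73, 6.30, and 8.65 at E18.5. FOXP1 at E15.5 was the highest of the 6 values in each of these 4 genes. Fold enrichment depends on the depth and antibody of a list, so values of different lists are not on 1 scale. At coding promoters too, the FOXP1 E15.5 list had the highest median, 7.97, against 4.64 to 7.91 in the other lists. Mir17hg, host of a microRNA cluster of proliferating cells, had the most CpG-rich promoter of these genes, at 0.985 observed over expected, and fold enrichments of 5.19 to 12.8. Mir670hg, a host of miR-670, had 4.83 to 8.23. Of 6 genes with a host name of this form, Mir155hg, host of a microRNA of immune cells, had peaks in the fewest lists, 2.95 for ARID1B at E15.5 and 4.38 for TCF7L2 at E18.5. The snoRNA hosts Snhg6 and Snhg20 had peaks in all 6 lists, of 6.77 to 15.8 and 4.55 to 10.9.

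The imprinted list had 3 lincRNA genes, as the other 6 of its 9 names are of another gene type. Their peaks had fold enrichments of 2.68 to 5.32, beside medians of 3.72 to 5.27 by list, and upper quartiles of 4.82 to 7.03, for all peaks at lincRNA promoters. Meg3, expressed from the maternal allele, had 3.30, 5.32, and 3.68 at E15.5, then 3.79, 4.82, and 3.94 at E18.5. Mirg, in the same imprinted domain on chromosome 12, had 3.66 (ARID1B) and 3.42 (FOXP1) at E15.5 and 3.93 (ARID1B) at E18.5, and TCF7L2 had no peak. H19 had 2.68 (ARID1B) and 3.92 (FOXP1) at E15.5 and 2.74 (TCF7L2) at E18.5. Meg3 is counted among the neural genes as well.

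Besides Mirg, the neural genes without peaks in all 6 lists were Rmst and Pantr1, both known from neural progenitors. Rmst, with 13 promoters, had 3.66 (ARID1B) and 3.80 (FOXP1) at E15.5 and 4.35 (ARID1B) and 3.17 (TCF7L2) at E18.5. Pantr1, the neighbor of the cortical transcription factor Pou3f3, had no peak in any list at the 4 promoters that were kept, all at TSSs inside the gene. Its other 6 promoters lie at the gene's 5' end, near the Pou3f3 TSS, and were left out by the distance limit. Each of these had peaks in all 6 lists, the highest 7.75, 13.8, and 8.17 at E15.5, then 7.99, 10.1, and 8.76 at E18.5. The absence of peaks thus held for the inner promoters of Pantr1 and not for the gene. A list of 155 lincRNA genes whose nearest coding gene is a cortical transcription factor had a peak in at least 1 list at 37 genes (23.9%, against 20.3% of all lincRNA genes) and in all 6 at 6 (3.87%, against 5.26%). By list, its share ran from 5.16% for FOXP1 at E18.5, against 7.01%, to 20%. The highest share was that of both FOXP1 at E15.5, against 15.8%, and TCF7L2 at E18.5, against 12.8%. The 6 genes were not independent, since C130071C03Rik and Gm26803 shared a peak in each of the 6 lists, and so did another pair. Of the 6, C130071C03Rik and Gm26803, both nearest to Mef2c, had FOXP1 values of 13.0 and 8.61 at E15.5. The highest ARID1B values of these 6 genes were those of Gm9915, whose nearest coding gene is Pou3f3 at 466 kb, with 11.3 at the earlier stage and 11.1 at the later one. Gm26803 and Gm9915 were named after their values were seen.

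Of 21 lincRNA genes known from other tissues or from stem cells, 17 had no promoter peak (81.0%, against 79.7% of all lincRNA genes), which is 16 of 17 Platr genes (transcripts of pluripotent cells) and Halr1, which lies next to the Hoxa genes. Platr26 had 4.46 (ARID1B) and 4.30 (FOXP1) at E15.5 and 5.47 (ARID1B) at E18.5. Lncenc1, of embryonic stem cells, had 4.55 (ARID1B) and 3.67 (FOXP1) at E15.5 and 3.50 (TCF7L2) at E18.5. Trp53cor1, a target of p53 next to Cdkn1a, had a TCF7L2 peak of 2.63 at E18.5. Bvht, known from cardiac progenitors, had peaks in all 6 lists, of 3.27 to 5.85.

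**Figure D5:**
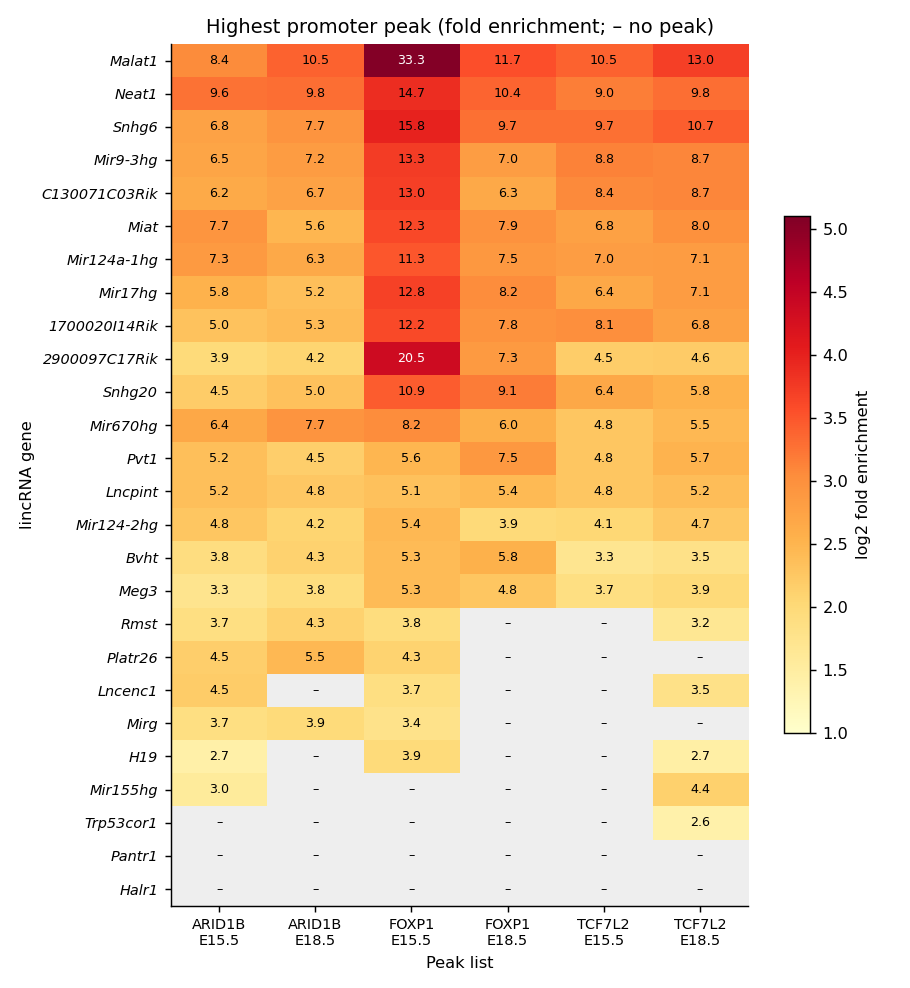
Each cell gives the highest fold enrichment of a peak at any promoter of the gene (rows) in each list (columns), colored on a log2 scale, and gray cells with a dash had no peak. The 16 Platr genes without a peak are left out. Genes run from 17 with peaks in all 6 lists (Malat1 to Meg3) down to Pantr1 and Halr1 with none, where Pantr1 is given for its 4 inner promoters.

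The highest values in 5 of the 6 lists came from 3 genes in a stretch with ribosomal RNA sequence. Gm26917, Gm42418, and AY036118 lie between 39843013 and 39848788 on chromosome 17, where RefSeq annotates Rn18s-rs5, a sequence related to 18S ribosomal RNA, at 39846354 to 39848202. Gm42418 and AY036118 overlap it, and Gm26917 ends just before it. Gm26917 and Gm42418 had 22.2, 20, and 37.1 at E15.5, then 25.8, 21.9, and 39.2 at E18.5. Ribosomal DNA is present in many copies in the genome, so reads from other copies could be counted there and these values are uncertain. Gm26917 and Gm42418, with equal values, were the highest of all lincRNA genes in 4 lists, and AY036118 was in the FOXP1 E18.5 list. In the FOXP1 E15.5 list D730045B01Rik and Malat1 were tied at 33.3. D730045B01Rik had 6.50 and 9.84 for ARID1B and TCF7L2 at E15.5 and 7.71, 16, and 10.4 for ARID1B, FOXP1, and TCF7L2 at E18.5.

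The next genes by their lowest value over the 6 lists were Gm9530, Gm12974, Gm26698, Neat1, Tmem250-ps, Gm47733, and Malat1. Gm9530, at chr1:155063447-155083266, had 10.9, 14.2, and 13.5 at E15.5, then 14.9, 9.98, and 12.5 at E18.5, with all 6 summits between -11 and -149 bp from its TSS. Gm26698, 7.77 kb from Irf2bpl, had 15.9, 15.3, and 9.74 at E15.5, then 17, 12, and 9.41 at E18.5. Its summits lay between -1941 and -2161 bp, at the far edge of the promoter, so the peaks were centered farther from the TSS than those of Gm9530. Gm47733, a short gene 439 kb from the nearest coding TSS, had ARID1B peaks of 17.8 and 21.3 at E15.5 and E18.5, FOXP1 peaks of 16.7 and 8.50, and TCF7L2 peaks of 11.8 and 10.8. Gm12974 had 9.61 to 14.6 with summits more than 2000 bp from its TSS in all 6 lists, and Tmem250-ps 8.73 to 14.8.

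Peaks of a single TR at both stages, with none of the other TRs, were found for ARID1B at 57 of the 909 lincRNA genes with any peak (6.27%), for FOXP1 at 10 (1.10%), and for TCF7L2 at 5 (0.550%). Of the 13678 coding genes with any peak, the shares were 0.366%, 0.205%, and 0.241%, and of all genes with any peak 1.49%, 0.326%, and 0.326%. Genes differ in their number of promoters, which these shares do not take into account. ARID1B had the longest list at both stages, so list length and TR cannot be told apart in these counts either. By the lower of the values at both stages, the highest of the ARID1B genes were Gm49046 with 8.10 at E15.5 and 6.45 at E18.5, AC158778.1 with 6.41 and 6.17, and Gm47514 with 5.17 and 5.33. All 3 lay more than 100 kb from a coding TSS and had a CpG observed over expected of 0.123 to 0.177. For FOXP1 they were 1700048O20Rik and Gm49343, which share the same peaks of 4.68 at both stages, and 4930573C15Rik with 5.95 and 4.53, whose lower value Gm28783 and Gm12320 also had. For TCF7L2 they were AC134446.1 with 3.79 and 3.39, Gm13067 with 3.47 and 3.61, and Gm10830 with 3.37 and 3.28. A missing peak of the other TRs means that none passed the authors' threshold, and the lists give no value below it.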

How the data were processed

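ChIP and input DNA of 24 libraries of mouse cortex was sequenced as single 50 bp reads. Per the labels and the study's methods, reads were aligned to GRCm38 with BWA mem 0.7.15 and kept at a mapping quality of 30 or more with samtools, and MACS2 2.2.7 called peaks against input with a q-value limit of 0.01, an extension of 200 bp, no model, and no local background. For duplicates, the treatment was not given in these sources. The authors merged the aligned reads of replicates and called the deposited lists on them. The fold enrichment at the summit (a ratio) and the -log10 p-value in these lists were used as the authors deposited them, and their score and q-value columns were not used. Each merged list is attached to the first of 2 replicates.

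Promoters were built from GENCODE vM21, an annotation of the same build, and overlap with a peak meant at least 1 base. Peaks on chromosomes 1 to 19 were used, and promoter sequence came from the GRCm38 assembly of RefSeq. CpG observed over expected, GC content, soft-masked share, and exact motif matches were computed from it. Where several peaks overlapped a promoter, the one with the highest fold enrichment was taken, and a gene's value is the highest over its promoters. Genes were named where they belonged to lists of neural, imprinted, microRNA host, snoRNA host, and other-tissue lincRNAs. Also named were the 10 genes with the highest lowest fold enrichment over the 6 lists, the 3 highest genes of each TR alone at both stages, genes with all 3 TRs at a single stage, and the highest gene of each list. The promoters, gene lists, and motifs were chosen with earlier results of these data known. With merged lists there was no replicate spread and no test, and shares were set beside those of all promoters. Sizes of the smaller merged read set were recovered from fold enrichment and p-value, where 100% of pairs matched within 0.02 on the -log10 scale. The overlap code was tested on simulated data. Python 3.11.15, numpy 2.4.6, pandas 2.3.3, scipy 1.17.1, and matplotlib 3.10.9 were used.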

Additional observations from a re-analysis of the deposited data

How the results depend on the processing

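Shares of lincRNA promoters with a peak are given in the order ARID1B, FOXP1, and TCF7L2 at E15.5, the same TRs at E18.5, and all 3 TRs together by stage. With peaks of a -log10 p of at least 15 they were 8.18%, 9.63%, 4.13%, 6.88%, 3.07%, 5.81%, 3.63%, and 2.13%, while shares of all promoters for single lists were 28.2% to 38.1%. All 3 TRs then had peaks at 27.4% of all promoters at E15.5 and 24.2% at E18.5. With each list cut to its 24526 strongest peaks they were 7.40%, 9.34%, 7.84%, 6.83%, 7.84%, 8.75%, 4.96%, and 3.95%, against 28.0% to 38.5% of all promoters by list, so that FOXP1 at E15.5 had the highest share and the 2 FOXP1 lists differed less than at full length. For all 3 TRs, the shares of all promoters in the cut lists were 27.5% at E15.5 and 26.6% at E18.5. With the summit required inside the promoter they were 12.3%, 12.2%, 7.55%, 12.1%, 6.20%, 10.3%, 5.32%, and 4.34%, against 25.4% to 29.4%, and with promoters of 1000 bp 14.5%, 14.4%, 8.62%, 13.2%, 6.77%, 12.2%, 7.96%, and 5.95%, against 35.1% to 41.3%. Counted over genes, 6 shares left the counting interval of the main value, at 8.71% for TCF7L2 at E15.5, 14.6%, 7.01%, and 12.8% for the 3 TRs at E18.5, and 7.97% and 6.04% for all 3 TRs, while 28.5% to 34.4% of all genes had a peak by list. Without promoters that overlap one of another gene type, 5 did, at 9.10% for TCF7L2 at E15.5, 7.12% and 12.8% for FOXP1 and TCF7L2 at E18.5, and 8.33% and 6.13% for all 3 TRs. In all, 42 of 56 values left that interval, and the 8 at a distance limit of 20000 bp did not. Each of these alternatives keeps fewer peaks, or fewer or shorter regions, than the main analysis. No paired analysis was possible because each list was called on merged replicates.

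The lists hold nothing below the authors' threshold, and enrichment under it was not measured at promoters without a peak. Shares of FOXP1 at E18.5 rest on the list with the smallest recovered read set. Reads that map to several places limit values in repeats and multi-copy sequence.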

Other observations

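The coding gene nearest to a lincRNA promoter had a promoter peak of the same list for 69.9% (FOXP1 at E18.5) to 80.1% (TCF7L2 at E18.5) of lincRNA promoters with a peak, and for 67.4% to 75.7% of those without one, in the same 2 lists at both ends. The values with a peak were higher in each of the 6 lists, by the least for FOXP1 at E18.5 and by the most for TCF7L2 at E15.5, with 77.4% against 71.9%.

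Chromosomes 2 and 17 had the largest shares of lincRNA promoters with a peak in any list, 30.3% of 333 promoters and 29.9% of 294, and chromosomes 10 and 14 the smallest, 12.6% of 452 and 14.7% of 341. The median CpG observed over expected was 0.197 and 0.219 on the former and 0.201 and 0.179 on the latter, so the order of the chromosomes by peaks was not that by CpG content.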
